A study of Rattus norvegicus with 6 samples.

Results

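The genes of cholesterol and isoprenoid synthesis described here are 28 protein-coding genes, taken by their symbols from the 18746 genes of the read count table. All 28 had a row in both the count table and the table of FPKM (fragments scaled by transcript length and by the number of mapped reads), and all 28 passed the filter on low counts, with 186 to 14697 reads per library. They fall into 4 steps: the mevalonate steps (6 genes), the isoprenoid steps (4 genes), the sterol steps (12 genes) and the regulators of the transcription factor SREBP (6 genes). The list does not hold every enzyme of the pathway, so its counts are not those of the pathway as a whole.

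The study names the cells as PC12, a cell line derived from a rat pheochromocytoma, a tumor of the adrenal medulla. NQO1, an enzyme that reduces quinones, was knocked down in 3 samples (siNQO1), and 3 other samples received a nontargeting control (siCtrl), both by lipid transfection. The methods describe siRNAs, whereas the sample labels describe an shRNA and a control plasmid. Harvest at 48 h is stated for RT-qPCR, and the time for the sequenced cells is not given in the sources used here. Polyadenylated RNA was sequenced, with 28873824 to 39467230 reads counted in genes per library. Nqo1 itself had 80.78, 75.2 and 77.72 FPKM in siNQO1 replicates 1, 2 and 3, against 368.62, 320.51 and 345.29 FPKM in siCtrl replicates 1, 2 and 3. Its transcript fell by 2.13 on the log2 scale (adjusted p = 1.54e-06, quasi-likelihood test of edgeR). The study calls the samples biological replicates. Since no source spells out that each came from its own culture, the p-values below cover only how much these samples vary.

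The labelled cell type was checked against its markers. Of 10 listed markers of chromaffin and PC12 cells 9 had a row, and only Snap25 exceeded 1 FPKM. Tyrosine hydroxylase (Th) lay at 0.04 to 0.07 FPKM in siNQO1 and 0.06 to 0.09 FPKM in siCtrl libraries, and Dbh, Chga and Ddc were at or near 0 in all 6. The 9 markers summed to 2.19 to 3.27 FPKM in siNQO1 and 1.86 to 3.3 FPKM in siCtrl libraries. Snap25 aside, the chromaffin and PC12 markers with a row thus did not bear out the labelled cell type. Which cells these were was not tested. The 3 listed Schwann cell markers summed to 205 to 217 FPKM in siNQO1 and 204 to 238 FPKM in siCtrl libraries, nearly all of it Sox10. The 2 of 3 leukocyte markers with a row summed to 2.48 to 3.36 FPKM in siNQO1 and 2.88 to 4.42 FPKM in siCtrl libraries. No listed adrenocortical or endothelial marker with a row exceeded 1 FPKM. The 3 of 5 fibroblast markers with a row summed to 46.0 to 49.3 FPKM in siNQO1 and 50.6 to 51.4 FPKM in siCtrl libraries, nearly all of it Pdgfra. The part of Pdgfra in the results below was not tested. In bulk RNA a change in the share of cells of a type and a change in RNA per cell cannot be told apart.

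Cells make cholesterol from acetyl-CoA. The mevalonate steps give isopentenyl diphosphate, the building block of all isoprenoids. Farnesyl diphosphate stands at the branch point: squalene synthase commits it to sterols, whereas other enzymes lengthen it into geranylgeranyl groups that anchor proteins to membranes or into dolichol that carries sugars for N-glycosylation. SREBP-2, encoded by Srebf2, is the transcription factor that turns on most genes of the pathway. When sterols are scarce SCAP escorts it to the Golgi, where 2 proteases (Mbtps1 and Mbtps2) cut it free, and when sterols are plentiful INSIG proteins hold SCAP in the endoplasmic reticulum.

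Transcripts of 10 of the 28 genes rose in siNQO1 relative to siCtrl cells, and none fell by the quasi-likelihood test of edgeR at an adjusted p under 0.05. The largest rises were those of Insig1 (1.8-fold), Hmgcs1 (1.63-fold), Fdps (1.57-fold), Dhcr7 (1.52-fold) and Fdft1 (1.42-fold). The other 5, Nsdhl, Cyp51, Acat2, Msmo1 and Sqle, rose by 1.14-fold to 1.31-fold. None of the 10 exceeded 2-fold. The share that rose was 35.7% of the 28 genes, beside 5.27% of the 12420 genes tested. The share of all genes that fell was 7.38%. At an unadjusted p under 0.05, 18 of the 28 genes were higher and 0 lower, beside 13.7% higher and 15.3% lower of all genes. DESeq2 called 11 of the 28 higher and 0 lower, beside 7.17% higher and 9.66% lower of the 10728 genes to which it gave an adjusted p.

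The median log2 fold change of the 28 genes was 0.23, with a range of -0.17 to 1.08, beside a median of 0.01 for all genes tested. It was positive in 24 of the 28 genes (85.7%), beside 51.7% of all genes. In 18 genes (64.3%) every siNQO1 library lay above every siCtrl library on the log2 CPM scale, whereas 16.3% of all genes did so. In 0 of the 28 genes did every siNQO1 library lie below every siCtrl library, beside 17.9% of all genes. The median of the 28 genes, relative to the siCtrl mean, was 0.23, 0.24 and 0.21 (log2 CPM) in siNQO1 replicates 1, 2 and 3, and -0.03, -0.01 and 0.04 in siCtrl replicates 1, 2 and 3. The 3 siNQO1 libraries were thus alike, and all lay above the 3 siCtrl libraries. The members were chosen with results of these data known, so these counts describe the list.

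**Figure D1:**
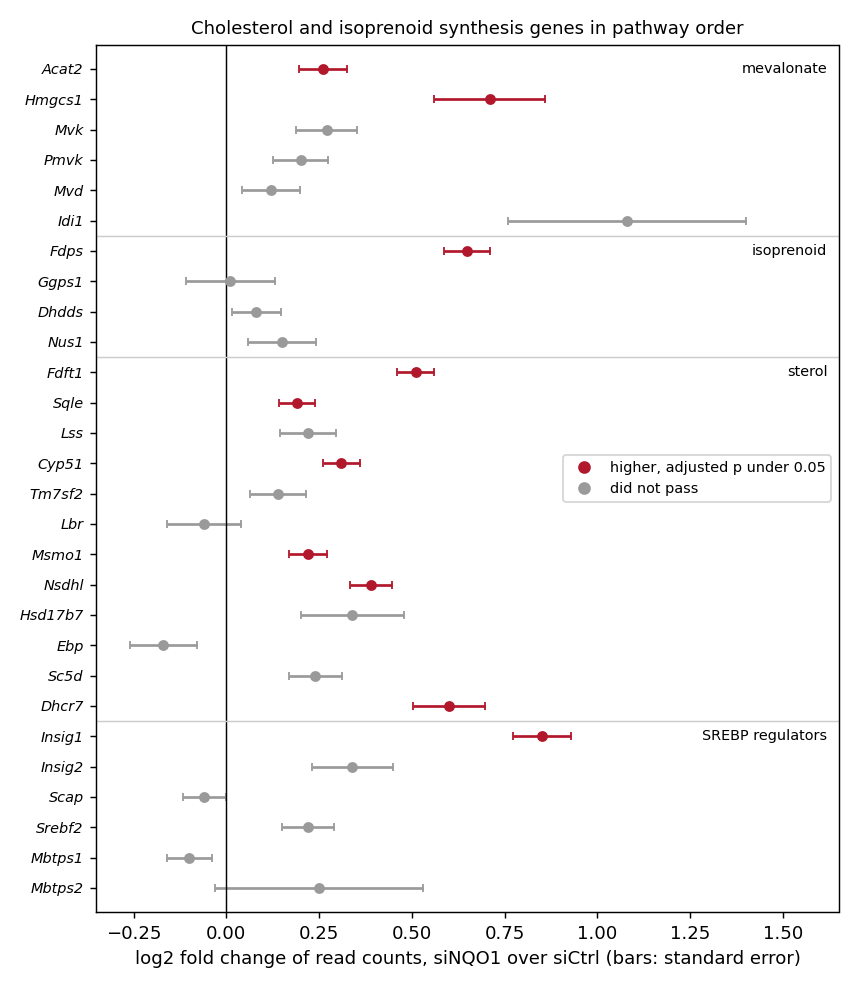
Log2 fold change of siNQO1 over siCtrl (x axis) for each of the 28 genes (y axis, ordered by pathway step), with its standard error as a bar, in red for genes past an adjusted p of 0.05 and in grey for the others. The 10 red points all lie above 0, between 0.19 (Sqle) and 0.85 (Insig1), while the grey point of Idi1 lies farthest to the right, at 1.08, with the longest bar.

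Promoters are shown for the genes that rose and hold an NF-Y box, because SREBP is known to act at sterol-responsive promoters together with the factors NF-Y and Sp1, and for Idi1, the gene with the largest difference. They come from RefSeq on the GRCr8 build, whereas the counts were made on RGSC6. Of the 28 genes, 25 had a promoter (250 bases before to 50 after the start), and Pmvk, Fdft1 and Sqle had none. Each line gives the 220 bases before the start, 5′ to 3′ on the strand of the gene, with the NF-Y box, CCAAT or its complement ATTGG, in capitals. The windows are chr2:53382084-53382303, plus strand for Hmgcs1, chr17:66547525-66547744, minus strand for Idi1, chr2:176804817-176805036, minus strand for Fdps, chr16:29746893-29747112, plus strand for Msmo1, chrX:155817140-155817359, plus strand for Nsdhl and chr4:8057770-8057989, minus strand for Insig1.
Hmgcs1: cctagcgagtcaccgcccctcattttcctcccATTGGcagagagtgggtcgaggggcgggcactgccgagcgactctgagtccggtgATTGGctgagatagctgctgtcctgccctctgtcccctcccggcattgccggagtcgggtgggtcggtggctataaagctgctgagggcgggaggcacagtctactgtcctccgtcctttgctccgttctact
Idi1: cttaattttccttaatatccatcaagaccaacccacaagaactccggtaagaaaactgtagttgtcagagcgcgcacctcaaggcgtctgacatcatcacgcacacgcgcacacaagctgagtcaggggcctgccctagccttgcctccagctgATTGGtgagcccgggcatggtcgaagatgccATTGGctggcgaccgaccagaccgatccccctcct
Fdps: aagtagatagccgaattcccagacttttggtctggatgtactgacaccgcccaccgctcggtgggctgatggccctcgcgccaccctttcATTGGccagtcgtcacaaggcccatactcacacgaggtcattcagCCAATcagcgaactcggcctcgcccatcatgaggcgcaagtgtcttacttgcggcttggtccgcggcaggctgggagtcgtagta
Msmo1: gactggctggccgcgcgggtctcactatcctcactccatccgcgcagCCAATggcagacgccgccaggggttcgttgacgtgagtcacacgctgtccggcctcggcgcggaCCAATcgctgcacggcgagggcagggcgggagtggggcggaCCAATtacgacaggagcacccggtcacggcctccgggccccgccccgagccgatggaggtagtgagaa
Nsdhl: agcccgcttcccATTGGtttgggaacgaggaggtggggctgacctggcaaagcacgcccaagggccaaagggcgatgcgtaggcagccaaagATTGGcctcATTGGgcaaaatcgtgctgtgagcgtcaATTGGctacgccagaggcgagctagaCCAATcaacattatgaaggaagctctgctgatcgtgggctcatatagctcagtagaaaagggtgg
Insig1: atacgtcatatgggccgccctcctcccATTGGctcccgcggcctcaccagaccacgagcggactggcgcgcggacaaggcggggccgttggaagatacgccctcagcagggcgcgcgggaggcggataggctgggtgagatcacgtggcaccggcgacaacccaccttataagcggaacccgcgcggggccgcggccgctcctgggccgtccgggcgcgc

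These windows hold 2 boxes in Hmgcs1, 2 in Idi1, 2 in Fdps, 3 in Msmo1, 5 in Nsdhl and 1 in Insig1. Over the full window and on both strands, CCAAT occurred in 19 of the 25 promoters (76.0%), beside 37.7% of all 27457 promoters and 38.3% of the 8729 promoters of genes tested. The Sp1 box GGGCGG occurred in 20 of the 25 (80.0%), beside 34.9% of all promoters and 63.6% of those of genes tested. CCAAT and GGGCGG matches shared 0 bases, and 15 of the 25 promoters held both. The sterol regulatory element, searched as TCACNCCAC, occurred in 0 of the 25 and in 1.13% of all promoters. A shorter core, CACCCCAC, searched after that result was seen, occurred in 1 of the 25 (Ebp), or 4.0%, and in 2.57% of all promoters. Among the 8 genes that rose and had a promoter, 5 held CCAAT and 7 held GGGCGG. Among the 17 that did not pass, 14 held CCAAT and 13 held GGGCGG. The NF-Y box was therefore found in genes of both kinds.

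Of the 6 genes of the mevalonate steps, Acat2 and Hmgcs1 rose, 4 did not pass, and the median log2 fold change was 0.27. Hmgcs1 (ENSRNOG00000016552, chromosome 2) encodes the cytosolic synthase that joins acetyl-CoA to acetoacetyl-CoA. It had 14.41, 13.7 and 11.43 FPKM in siNQO1 and 6.57, 9.82 and 8.01 FPKM in siCtrl libraries. The groups did not overlap, but the lowest siNQO1 library, replicate 3, and the highest siCtrl library, replicate 2, were close. Its mean was 13.2 ± 1.56 FPKM in siNQO1 and 8.13 ± 1.63 FPKM in siCtrl cells (SD, n = 3 each), and its log2 fold change was 0.71 (SE 0.15, adjusted p = 0.017). The call was lost without siNQO1 replicate 1, siNQO1 replicate 2 or siCtrl replicate 3, with an adjusted p of at most 0.104. Acat2 (ENSRNOG00000019189, chromosome 1), the cytosolic thiolase of the first step, had 14.4, 13.77 and 13.92 FPKM in siNQO1 and 12.13, 12.07 and 11.37 FPKM in siCtrl libraries. All 3 siNQO1 libraries were above the siCtrl libraries by a small margin. The log2 fold change was 0.26 (SE 0.064, adjusted p = 0.0345), and the call held only without siCtrl replicate 2 and was lost without any of the other 5 libraries, with an adjusted p of at most 0.153.

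Idi1 (ENSRNOG00000016690, chromosome 17), the isomerase that turns isopentenyl into dimethylallyl diphosphate, had the largest difference and did not pass. It had 10.18, 10.35 and 9.47 FPKM in siNQO1 and 2.74, 7.87 and 3.7 FPKM in siCtrl libraries. The siNQO1 libraries were nearly level, whereas siCtrl replicate 2 stood far above the other two siCtrl libraries and close to siNQO1. Read counts show the same order, with 1104, 1107 and 1214 reads in siNQO1 and 255, 899 and 422 reads in siCtrl libraries. The standard deviation of log2 CPM was 0.08 in siNQO1 and 0.78 in siCtrl. The log2 fold change was 1.08 (SE 0.32, adjusted p = 0.0589). Without siCtrl replicate 2 it was 1.63 (adjusted p = 2.5e-06).

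The remaining mevalonate genes did not pass. Mvk, mevalonate kinase, had 19.09, 19.32 and 20.59 FPKM in siNQO1 and 17.52, 15.07 and 16.67 FPKM in siCtrl libraries, with no overlap and an adjusted p of 0.0632. Pmvk, the next kinase, had 51.75, 51.35 and 57.09 FPKM in siNQO1 and 48.88, 42.86 and 49.05 FPKM in siCtrl libraries. Its groups did not overlap either (adjusted p = 0.115). Mvd, the decarboxylase, had 13.49, 13.82 and 14.17 FPKM in siNQO1 and 12.85, 11.97 and 13.73 FPKM in siCtrl libraries, which overlapped (adjusted p = 0.362).

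**Figure D2:**
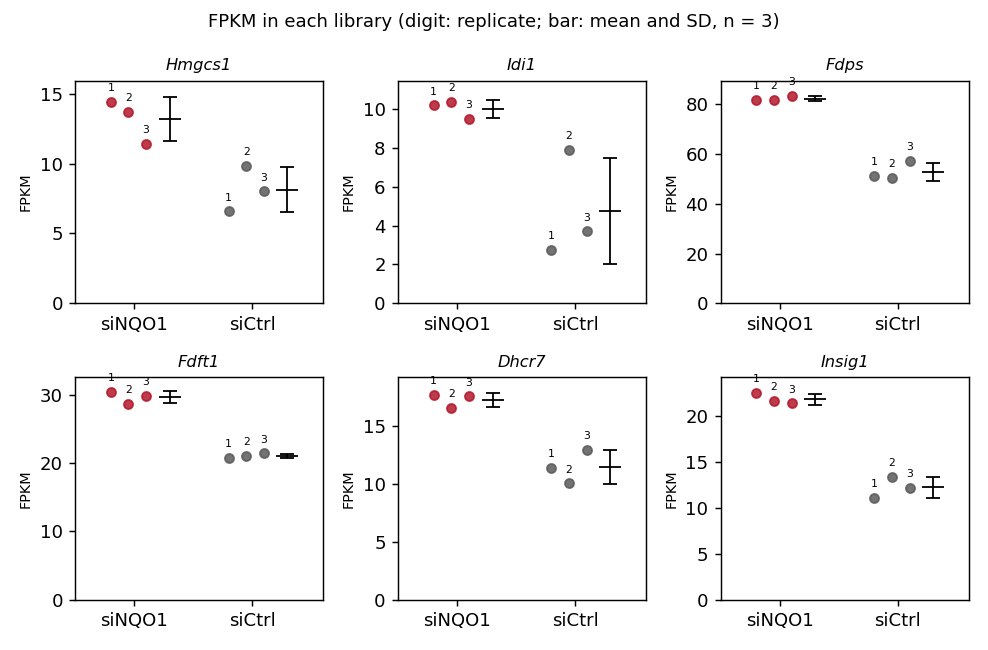
FPKM (y axis, from 0) of 6 genes in each siNQO1 and siCtrl library, with digits for the replicate and a bar for the mean and SD (n = 3 each). No siCtrl point reaches a siNQO1 point, and siCtrl replicate 2 of Idi1 (7.87 FPKM) stands apart from replicates 1 (2.74 FPKM) and 3 (3.7 FPKM).

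Among the 4 isoprenoid genes only Fdps rose, and the median log2 fold change was 0.11. Fdps (ENSRNOG00000043377, chromosome 2), which makes farnesyl diphosphate, had 81.75, 81.65 and 83.41 FPKM in siNQO1 and 51.36, 50.44 and 57.09 FPKM in siCtrl libraries. The gap between the groups was wider than the range within either. Its mean was 82.3 ± 0.989 FPKM in siNQO1 and 53.0 ± 3.6 FPKM in siCtrl cells (SD, n = 3 each). The log2 fold change was 0.65 (SE 0.062, adjusted p = 0.000704), and the gene passed without any one library, with an adjusted p of at most 0.00732.

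The other 3 isoprenoid genes, which act toward geranylgeranyl groups and dolichol, did not pass, and their groups overlapped. Ggps1, which makes geranylgeranyl diphosphate, had 3.0, 2.82 and 2.66 FPKM in siNQO1 and 2.44, 3.29 and 2.78 FPKM in siCtrl libraries, with a log2 fold change of 0.01 (SE 0.12, adjusted p = 0.978). Dhdds, a subunit of the prenyltransferase that builds the dolichol chain, had 18.55, 20.3 and 19.73 FPKM in siNQO1 and 19.69, 17.28 and 19.11 FPKM in siCtrl libraries. Its log2 fold change was 0.08 (SE 0.066, adjusted p = 0.488). Nus1, the other subunit, had 17.66, 17.9 and 16.1 FPKM in siNQO1 and 14.24, 17.95 and 14.71 FPKM in siCtrl libraries. Here siCtrl replicate 2 was as high as the siNQO1 libraries (log2 fold change 0.15, adjusted p = 0.307).

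The branch toward sterols was set against that toward geranylgeranyl groups as the ratio of Fdft1 to Ggps1, both in FPKM and thus per length. The ratio was 10.1, 10.2 and 11.2 in siNQO1 and 8.5, 6.4 and 7.71 in siCtrl libraries. Every siNQO1 library was above every siCtrl library. On the log2 scale it averaged 3.39 ± 0.083 in siNQO1 and 2.90 ± 0.21 in siCtrl cells (SD, n = 3 each), a difference of 0.49. The exact permutation test, two-sided, gave p = 0.10, the smallest it allows with 3 samples against 3, and 0.15 after adjustment over the 3 ratios computed.

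The sterol steps held the most calls. Of 12 genes 6 rose, 6 did not pass, and the median log2 fold change was 0.23. Fdft1 (ENSRNOG00000021314, chromosome 15), squalene synthase, had 30.41, 28.67 and 29.83 FPKM in siNQO1 and 20.74, 21.04 and 21.42 FPKM in siCtrl libraries. Both groups were tight and far apart. Its log2 fold change was 0.51 (SE 0.051, adjusted p = 0.000915). Dhcr7 (ENSRNOG00000020776, chromosome 1), the reductase that acts on 7-dehydrocholesterol late in the pathway, had 17.7, 16.55 and 17.58 FPKM in siNQO1 and 11.41, 10.06 and 12.97 FPKM in siCtrl libraries. The siCtrl libraries were more spread, yet all lay below siNQO1. Its mean was 17.3 ± 0.632 FPKM in siNQO1 and 11.5 ± 1.46 FPKM in siCtrl cells (SD, n = 3 each), with a log2 fold change of 0.60 (SE 0.096, adjusted p = 0.00654).

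Nsdhl and Cyp51 act in the removal of methyl groups from lanosterol. Nsdhl (ENSRNOG00000057814, chromosome X) had 12.86, 12.58 and 12.77 FPKM in siNQO1 and 9.73, 9.81 and 9.91 FPKM in siCtrl libraries. It was among the tightest genes of the list in both groups. Its log2 fold change was 0.39 (SE 0.057, adjusted p = 0.00459). Cyp51 (ENSRNOG00000007234, chromosome 4), the lanosterol demethylase and the member with the highest FPKM, had 99.33, 96.88 and 96.49 FPKM in siNQO1 and 77.31, 80.08 and 81.34 FPKM in siCtrl libraries. All 3 siNQO1 libraries lay clearly above the siCtrl range. The log2 fold change of Cyp51 was 0.31 (SE 0.049, adjusted p = 0.00612). Fdft1, Dhcr7, Nsdhl and Cyp51 all passed without any one library, with an adjusted p of at most 0.0377.

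Msmo1 and Sqle rose by less, and their calls rested on all 6 libraries more closely. Msmo1 (ENSRNOG00000032297, chromosome 16), a methylsterol monooxygenase, had 81.3, 86.03 and 80.96 FPKM in siNQO1 and 70.36, 71.36 and 73.76 FPKM in siCtrl libraries (log2 fold change 0.22, SE 0.051, adjusted p = 0.0279). Its groups did not overlap. The call was lost without siCtrl replicate 1 or any 1 of the siNQO1 libraries, with an adjusted p of at most 0.121. Sqle (ENSRNOG00000009550, chromosome 7), squalene epoxidase, had 42.5, 44.88 and 44.05 FPKM in siNQO1 and 37.81, 38.9 and 39.76 FPKM in siCtrl libraries (log2 fold change 0.19, SE 0.049, adjusted p = 0.0393). Again no siCtrl library reached the siNQO1 range. The call held without siCtrl replicate 2 and was lost without any of the other 5 libraries, with an adjusted p of at most 0.159.

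Of the 6 sterol genes that did not pass, Lss, Tm7sf2 and Sc5d had no overlap between groups. Lss, which folds squalene epoxide into lanosterol, had 6.93, 6.99 and 7.94 FPKM in siNQO1 and 6.45, 5.96 and 6.52 FPKM in siCtrl libraries (adjusted p = 0.0942). Sc5d, a late desaturase, had 10.99, 11.2 and 10.52 FPKM in siNQO1 and 8.56, 10.09 and 9.34 FPKM in siCtrl libraries (adjusted p = 0.0645). For Hsd17b7, a ketoreductase, the values were 3.7, 2.96 and 2.69 FPKM in siNQO1 and 2.32, 2.4 and 2.73 FPKM in siCtrl libraries, which overlapped (adjusted p = 0.149). Ebp, the sterol isomerase, was the member with the lowest fold change. It had 25.46, 22.77 and 24.18 FPKM in siNQO1 and 27.18, 24.99 and 30.09 FPKM in siCtrl libraries, with overlap and a log2 fold change of -0.17 (SE 0.09, adjusted p = 0.25).

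Tm7sf2 and Lbr encode 2 reductases that can carry out the same step, and Lbr is also a protein of the inner nuclear membrane. Tm7sf2 had 11.43, 10.99 and 11.14 FPKM in siNQO1 and 10.36, 9.61 and 10.75 FPKM in siCtrl libraries (adjusted p = 0.253). Lbr had 5.65, 6.49 and 6.35 FPKM in siNQO1 and 7.04, 6.66 and 5.8 FPKM in siCtrl libraries (adjusted p = 0.73). The ratio of Tm7sf2 to Lbr in FPKM was 2.02, 1.69 and 1.75 in siNQO1 and 1.47, 1.44 and 1.85 in siCtrl libraries, and the groups overlapped. The log2 ratios differed by 0.20 (exact permutation p = 0.30, two-sided, and 0.30 after adjustment over the 3 ratios).

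**Figure D3:**
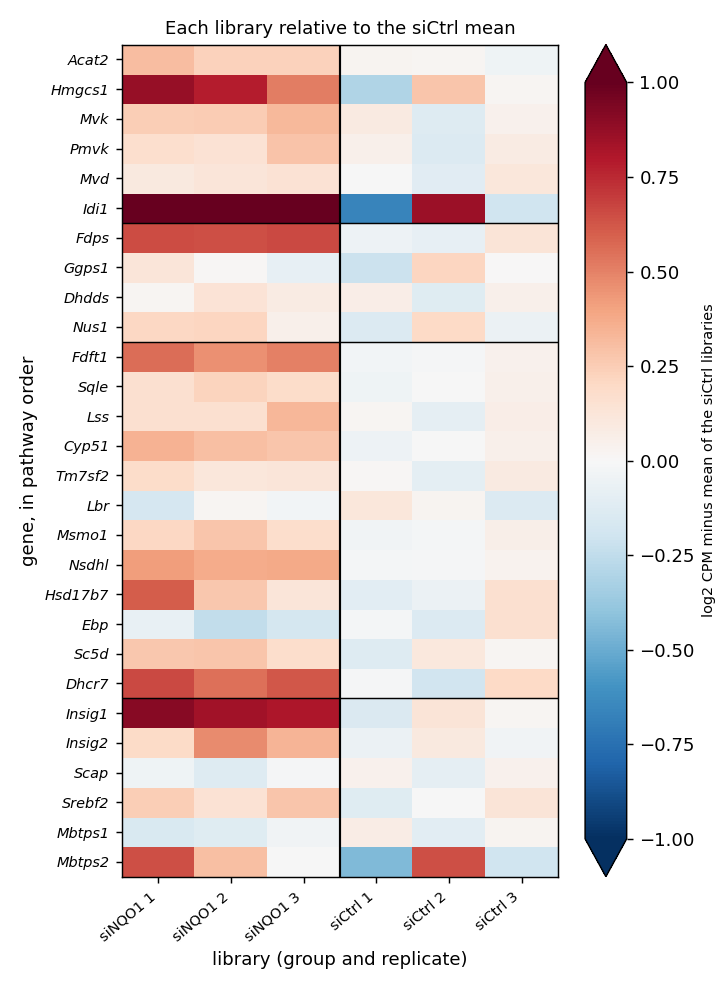
Log2 CPM of the 28 genes (down the page, by step) in each of the 6 libraries (across, siNQO1 left of siCtrl), relative to the mean of the gene in siCtrl, with red above and blue below it and the colours capped at 1, which Idi1 exceeds in siNQO1. Most genes are red in all 3 siNQO1 columns, and the siCtrl columns differ most in Idi1, Hmgcs1 and Mbtps2.

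Of the 6 regulators only Insig1 rose, and it was the member with the smallest adjusted p. Insig1 (ENSRNOG00000006859, chromosome 4) is itself a known target of SREBP, so that its protein acts back on the pathway. It had 22.46, 21.63 and 21.35 FPKM in siNQO1 and 11.05, 13.4 and 12.19 FPKM in siCtrl libraries. The lowest siNQO1 library lay far above the highest siCtrl library. Its mean was 21.8 ± 0.577 FPKM in siNQO1 and 12.2 ± 1.18 FPKM in siCtrl cells (SD, n = 3 each), and its log2 fold change was 0.85 (SE 0.078, adjusted p = 0.000604). It passed without any one library, with an adjusted p of at most 0.0114.

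Insig2, the paralog, had 7.82, 9.6 and 8.83 FPKM in siNQO1 and 6.73, 7.5 and 6.73 FPKM in siCtrl libraries. The groups did not overlap, but the log2 fold change of 0.34 did not pass (SE 0.11, adjusted p = 0.0862). The ratio of Insig1 to Insig2 in FPKM was 2.87, 2.25 and 2.42 in siNQO1 and 1.64, 1.79 and 1.81 in siCtrl libraries. On the log2 scale it averaged 1.32 ± 0.18 in siNQO1 and 0.80 ± 0.077 in siCtrl cells (SD, n = 3 each), a difference of 0.52. Every siNQO1 library was above every siCtrl library, and the exact permutation test, two-sided, gave p = 0.10, its smallest possible value, and 0.15 after adjustment over the 3 ratios.

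Srebf2 had 20.37, 19.21 and 21.28 FPKM in siNQO1 and 16.18, 17.58 and 18.91 FPKM in siCtrl libraries. The groups did not overlap, with a log2 fold change of 0.22 (SE 0.071, adjusted p = 0.0773). Scap had 21.73, 20.63 and 22.61 FPKM in siNQO1 and 23.66, 21.56 and 23.21 FPKM in siCtrl libraries (adjusted p = 0.526). The first protease gene, Mbtps1, had 20.72, 21.44 and 22.95 FPKM in siNQO1 and 24.89, 22.04 and 23.73 FPKM in siCtrl libraries (adjusted p = 0.296). Scap and Mbtps1 thus overlapped between groups. The second, Mbtps2, was the member with the lowest FPKM, at 1.91, 1.52 and 1.24 FPKM in siNQO1 and 0.92, 1.96 and 1.07 FPKM in siCtrl libraries (adjusted p = 0.586).

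The siCtrl libraries were less alike than the siNQO1 libraries. The median standard deviation of log2 CPM over the 28 genes was 0.06 in siNQO1 and 0.115 in siCtrl, and it was larger in siCtrl in 22 of the 28. For all genes tested the medians were 0.076 in siNQO1 and 0.126 in siCtrl, with 9080 of 12420 larger in siCtrl. Replicate 1 was the highest siCtrl library for 6 of the 28 genes (beside 34.1% of all genes), replicate 2 for 8 of 28 (beside 35.1%) and replicate 3 for 14 of 28 (beside 30.7%).

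Leaving out siCtrl replicate 2 changed the counts most. Without it 17 of the 28 genes rose (60.7%), beside 17.2% of all genes tested. The 7 genes gained were Mvk, Idi1, Nus1, Sc5d, Insig2, Srebf2 and Mbtps2. Ebp and Mbtps1 fell in that comparison, with log2 fold changes of -0.24 (adjusted p = 0.0295) and -0.16 (adjusted p = 0.0252), and 16.1% of all genes did so. The groups did not overlap in 20 genes that were higher in siNQO1, beside 28.8% of all genes, and in 3 that were lower, beside 28.3%. Without any other single library 6 or 7 of the 28 genes rose, and 1.32% to 2.73% of all genes. Fdps, Fdft1, Cyp51, Nsdhl, Dhcr7 and Insig1 passed in all 6 of these comparisons.

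**Figure D4:**
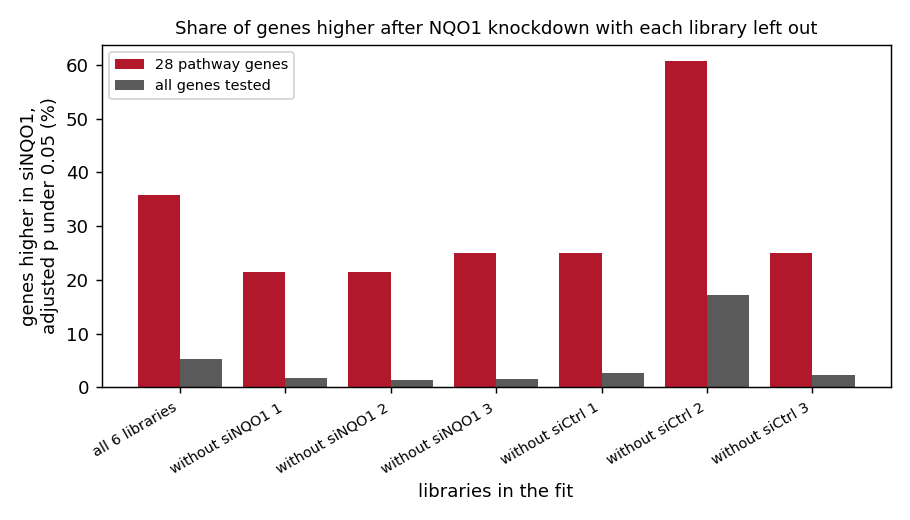
Percent of genes higher in siNQO1 at an adjusted p under 0.05 for the 28 pathway genes and for all genes tested, with all 6 libraries and with each library left out. The share of the 28 genes is 35.7% with all libraries and 60.7% without siCtrl replicate 2, beside 5.27% and 17.2% of all genes.

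Genes around the pathway did not share one direction. Each list below is short, and its counts are to be read beside 5.27% of all genes tested that rose and 7.38% that fell. Of 15 tested genes for SREBP escort, turnover and sterol sensing partners, 1 rose and 2 fell, with a median log2 fold change of -0.03. DESeq2 called 0 of them higher and 2 lower, beside 7.17% and 9.66% of all genes to which it gave an adjusted p. Erg28, listed as RGD1310769 and known in yeast as a scaffold of sterol enzymes, rose with a log2 fold change of 0.19 (adjusted p = 0.0418), a call that was lost without any single library but siCtrl replicate 2 (adjusted p at most 0.171). Of the genes that fell, 1 is a sterol enzyme outside the 28, so the 0 falls among the 28 do not hold for every sterol enzyme.

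Of 17 tested genes for sterol uptake, movement and storage, 2 rose and 2 fell (median log2 fold change -0.06). Soat1, which esterifies cholesterol for storage, had 9.43, 9.05 and 9.35 FPKM in siNQO1 and 13.47, 12.64 and 11.63 FPKM in siCtrl libraries, and fell by 0.42 on the log2 scale (adjusted p = 0.0106). Osbp, an oxysterol-binding lipid carrier, fell by 0.21 (adjusted p = 0.0396), and Tmem41b, a lipid scramblase, rose with a log2 fold change of 0.46 (adjusted p = 0.03). The call of Soat1 was lost without siNQO1 replicate 2 or 3 (adjusted p at most 0.0597). That of Osbp was lost without siNQO1 replicate 2 or 3 or siCtrl replicate 1 or 3 (at most 0.119), and that of Tmem41b without any single library but siCtrl replicate 2 (at most 0.156).

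Downstream of farnesyl and geranylgeranyl diphosphate, 1 of 10 tested genes of prenyl transfer rose and 0 fell, beside 5.27% and 7.38% of all genes. The median log2 fold change was -0.06, with 0 lower at an unadjusted p under 0.05, beside 15.3% of all genes. DESeq2 also called 0 lower, beside 9.66% of all genes to which it gave an adjusted p. The gene that rose was Fnta, the shared alpha subunit of the farnesyl and geranylgeranyl transferases. It had 82.04, 79.08 and 83.27 FPKM in siNQO1 and 64.57, 63.21 and 64.86 FPKM in siCtrl libraries. Its groups were wide apart, with a log2 fold change of 0.36 (SE 0.047, adjusted p = 0.00275, and at most 0.0181 without any one library). Fntb, the beta subunit of the farnesyl transferase, had a log2 fold change of -0.06 (adjusted p = 0.642). Pggt1b, the beta subunit of the geranylgeranyl transferase, had a log2 fold change of 0.4 (SE 0.2, adjusted p = 0.231). It did not pass, and its groups overlapped. Of 14 tested genes of dolichol supply and the start of N-glycosylation, Dpm1 rose (0.32, adjusted p = 0.0276) and Alg2 fell (-0.37, adjusted p = 0.0169). Their median was 0.02. The call of Dpm1 was lost without any single library but siCtrl replicate 2 (adjusted p at most 0.15), and that of Alg2 without siNQO1 replicate 2 or 3 or siCtrl replicate 3 (at most 0.0668).

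The 3 calls among the lipogenic genes of the related factor SREBP-1 were falls. Of 12 tested, 0 rose and 3 fell by the test of edgeR, beside 5.27% and 7.38% of all genes. The median log2 fold change was -0.11. DESeq2 likewise called 0 higher and 3 lower, beside 7.17% and 9.66% of all genes to which it gave an adjusted p. At an unadjusted p under 0.05, 2 were higher and 4 lower, beside 13.7% and 15.3% of all genes. Scd2, a fatty acid desaturase, had 162.79, 156.26 and 159.96 FPKM in siNQO1 and 203.32, 198.03 and 211.29 FPKM in siCtrl libraries, and fell by 0.34 on the log2 scale (SE 0.053, adjusted p = 0.00588). Srebf1 had 0.57, 0.43 and 0.58 FPKM in siNQO1 and 0.81, 0.86 and 0.82 FPKM in siCtrl libraries, and fell by 0.65 (SE 0.15, adjusted p = 0.0298) at a level below 1 FPKM. Scd2 passed without any one library (adjusted p at most 0.0295), whereas the call of Srebf1 held only without siCtrl replicate 2 (at most 0.108 without another). Acly, which supplies cytosolic acetyl-CoA, fell by 0.31 (adjusted p = 0.00901, and 0.054 without siNQO1 replicate 2). The difference between this list and the 28 genes was not tested.

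Acetoacetyl-CoA, which Hmgcs1 uses, can also come from other enzymes. Of 5 tested genes of thiolases and ketone body use, 2 rose and 0 fell, beside 5.27% and 7.38% of all genes. At an unadjusted p under 0.05, 2 were higher and 1 lower, beside 13.7% and 15.3% of all genes. DESeq2 called 1 higher and 0 lower, beside 7.17% and 9.66% of all genes to which it gave an adjusted p. Aacs, which activates acetoacetate in the cytosol, had 16.55, 16.65 and 16.18 FPKM in siNQO1 and 12.07, 11.65 and 11.99 FPKM in siCtrl libraries. The groups were tight and far apart, with a log2 fold change of 0.48 (SE 0.055, adjusted p = 0.00155, and at most 0.0167 without any one library). Acat1, the mitochondrial thiolase, rose with a log2 fold change of 0.18 (adjusted p = 0.0455, a call lost without any single library but siCtrl replicate 2, at most 0.165).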

How the data were processed

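Polyadenylated RNA of 6 samples was sequenced from stranded libraries. Per the methods the authors used TopHat2 to align reads to RGSC6 and kept uniquely mapped ones; bcl2fastq and edgeR also appear in the submitters' processing notes. The authors deposited read counts as whole numbers, with no normalization. The deposited FPKM values were scaled by the authors for transcript length and mapped reads. How reads were counted, and whether by strand, is not given in the sources used here. Overlapping or antisense genes and near-identical copies may share reads.

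The quasi-likelihood test of edgeR 4.0.16 (R 4.3.3; glmQLFit, glmQLFTest) was run on the counts after filterByExpr and TMM scaling, without a block. P-values were adjusted by Benjamini-Hochberg over all 12420 genes that passed the filter, and the common biological coefficient of variation was 0.109. A gene was called at an adjusted p under 0.05, also where a fold is printed. The standard error (SE) is the absolute log2 fold change divided by the square root of the F statistic of this test. Log2 CPM used a prior count of 2. The script was tested on simulated data. FPKM served for levels and for ratios, which were compared by exact permutation tests. With 3 samples a group, precision is limited by the samples rather than by read depth.

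Alternatives were other scalings and filters, DESeq2 1.42.0, limma 3.58.1 (voom, and log2 FPKM with pseudocounts of 1 and 0.1), a fold over 2, the replicate block and each library left out. Promoters were the RefSeq windows of GRCr8, searched on both strands. All members are given, and from each related list up to 4 passing genes per direction by smallest p, plus Srebf1. Fntb and Pggt1b were named after their values were seen. Members and lists were chosen with earlier results of these data known. Some genes selected in this way are not reported here.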

Additional observations from a re-analysis of the deposited data

How the results depend on the processing

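With all libraries the test called 10 members higher and 0 lower, and 654 genes higher and 917 lower among all genes. Leaving out 1 library gave 6 to 17 members higher, 0 to 2 members lower, 167 to 2164 genes higher and 351 to 2036 genes lower. The highest of each of these came without siCtrl replicate 2, and the lowest counts of all genes without siNQO1 replicate 2. Asking also for a fold over 2 left 0 members higher, 30 genes higher and 24 genes lower. The count of members without overlap when siCtrl replicate 2 is left out was added after seeing the data. The median log2 fold change of the members and the 3 ratios kept their sign under every alternative run for them.

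Other scalings and a stricter filter called the same 10 members. No filter on low counts called 11, DESeq2 11, limma voom 12, and limma on log2 FPKM 11 or 12 with a pseudocount of 1 or 0.1. With the replicate block 8 members were higher, with 610 genes higher and 740 lower: Acat2 (adjusted p = 0.0642), Sqle (0.0631) and Msmo1 (0.0523) lost the call and Idi1 gained it (0.0273). Deviations of same-numbered libraries correlated at -0.04, 0.16 and 0.06, and not every library correlated best with its own number, so the numbers were not taken as pairing.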
